A study of Mus musculus with 8 samples.

Results

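The protocadherins were described in mouse mammary tumours with and without intact Stat3. Members were all non-control probes whose gene name on the array begins with Pcdh, which gave 71 of 41174 probes and 44 of 28786 genes. They fall into 3 alpha, 22 beta, 6 gamma and 13 non-clustered genes. After the filter on dim probes, 36 member genes were measured among 21565 genes: 2 alpha, 20 beta, 5 gamma and 9 non-clustered. The family was chosen with the comparison of the genotypes already known, so its differences between genotypes are a description and support nothing by themselves.

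Protocadherins are the largest group within the cadherin superfamily of adhesion molecules. The clustered genes lie in 3 neighbouring arrays of variable exons, in the order alpha, beta, gamma, and individual cells switch on different subsets of them by promoter choice, a step that depends on DNA methylation, the insulator protein CTCF and cohesin. Each alpha and gamma variable exon is spliced to constant exons shared by its whole cluster, whereas each beta gene is a single exon with its own cytoplasmic end. The clustered proteins are best known for giving neurons a surface identity by homophilic binding, and the clusters are also known as targets of long-range epigenetic silencing in breast and other epithelial cancers. The non-clustered members are scattered single genes with their own tissue patterns.

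All tumours came from virgin female mice carrying MMTV-NIC, in which the mouse mammary tumour virus promoter drives a single message for the Neu (ErbB2) oncogene and for Cre recombinase, so that every tumour, controls included, has Neu and Cre in the same epithelial cells. The floxed group held 5 single tumours from Stat3flx/flx/MMTV-NIC mice, in which Cre can delete Stat3 in the transgenic epithelium but not in the stroma, vessels or immune cells of the tumour. The control group held 3 pools from Stat3wt/wt/MMTV-NIC mice, each of RNA from 5 tumours, so that the spread between pools is a spread of averages and that between floxed tumours is not. All were taken 6 weeks after a tumour was first palpable; mouse age in itself is not given. The tumour RNA (Cy5) was set against a universal mouse reference RNA (Cy3) on every array, and values here are log2 ratios of tumour over reference unless stated otherwise. The 5 floxed numbers only name the tumours.

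The tumour channel was well above background for 71.7 to 77.3% of probes per array, and for 45 to 56 of the 71 member probes. Correlations between arrays ran from 0.864, between floxed tumour 1 and wild-type pool 3, to 0.964. The 10 luminal epithelial markers, among them Krt8, Krt18 and Epcam, were all measured, with a summed tumour signal of 688733 to 764079 in the floxed tumours and 705298 to 769598 in the pools, which matches the labelled tissue. Summed signals, here and below, are of Cy5 intensities quantile-normalized across the arrays, not of raw intensities. Stat3, the targeted gene, was at -1.32, -1.33, -1.48, -1.22 and -1.12 in the floxed tumours and at 0.12, 0.86 and 1.27 in the pools. The groups did not overlap for Stat3, and the difference of -2.05 (SE 0.24, 4.13-fold lower) had an adjusted p of 0.109 in limma with Benjamini-Hochberg adjustment over all genes. The exact permutation test gave p = 0.0179 two-sided, the smallest that 5 against 3 samples allow; with 1 sample left out the limma adjusted p ran from 0.0281, without wild-type pool 1, to 0.382, without floxed tumour 5. With the mean of its probes in place of the brightest one, the Stat3 difference was -1.32, with a limma adjusted p of 0.703. In bulk tumour RNA, fewer cells of a type and less RNA per cell cannot be told apart.

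The beta cluster was the class with the broad difference. Of its 20 measured genes, 19 were lower on average in the floxed tumours, with a median difference of -0.87, against -0.18 over 5 gamma genes, -0.10 over 2 alpha genes, 0.08 over 9 non-clustered genes and -0.01 over all genes. An unadjusted limma p under 0.05 with lower floxed values was found for 14 of the 20 beta genes and none with higher values; the background over all genes tested is 3.36% for lower, 1.62% for higher and 4.98% for either. With the scanner software's processed signals, 57.3% of all such calls were for lower values, against 67.4% here. With probes kept only if well above background on all 8 arrays, 11 of 17 beta genes had lower values at that p. So did 631 of all 19114 genes. All 5 floxed tumours lay below all 3 pools for 8 beta genes, where the background is 2.17%. Nothing is read from these shares, since the contrast itself prompted the choice of the family. No beta gene passed a threshold of 0.05 after adjustment over all 21565 genes, of which 1 did (0.00464%); the lowest adjusted p was 0.220, for Pcdhb4.

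**Figure D1:**
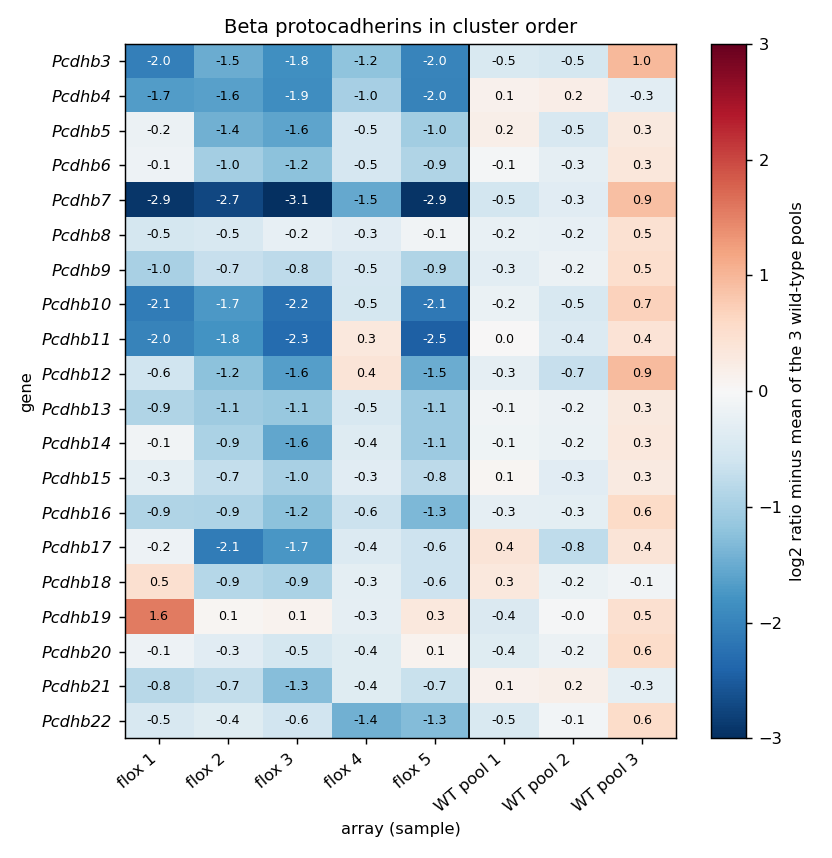
Heat map of the 20 measured beta protocadherins, listed from top to bottom by their order in the cluster, in the 5 floxed tumours and 3 wild-type pools. Colour and printed value are the log2 ratio of tumour over reference minus the mean of the 3 pools; blue fills most floxed columns, the deepest on the row of Pcdhb7, while floxed tumour 1 stands out in red for Pcdhb19.

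Pcdhb7 differed most of the beta genes. It was at -1.01, -0.82, -1.14, 0.37 and -1.03 in the floxed tumours and at 1.36, 1.57 and 2.81 in the pools, a mean difference of -2.64 (SE 0.42), or 6.23-fold lower. The groups stood apart by about a log2 unit at their nearest, with floxed tumour 4 the highest of its group and pool 3 the highest of all. Like the other beta proteins, Pcdhb7 has the cadherin repeats that bind the same protein on a neighbouring cell and lacks the shared alpha or gamma cytoplasmic end.

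Pcdhb10 was at -0.09, 0.28, -0.23, 1.47 and -0.13 in the floxed tumours and at 1.80, 1.53 and 2.70 in the pools, a difference of -1.75 (SE 0.42). Floxed tumour 4 came close to the lowest pool without overlap, and the other 4 lay well below. Pcdhb10 was dim, well above background in 4 of 5 floxed tumours and 3 of 3 pools. With the scanner software's processed signals its difference was -2.53. Pcdhb3 was at -0.46, 0.09, -0.24, 0.38 and -0.39 against 1.14, 1.07 and 2.56, a difference of -1.71 (SE 0.36). Its groups did not overlap either, and pool 3 stood above the other pools.

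Pcdhb4 was at -0.19, -0.14, -0.38, 0.50 and -0.50 in the floxed tumours and at 1.63, 1.68 and 1.17 in the pools, a difference of -1.64 (SE 0.24). It had the smallest SE of the 5 beta genes with the largest differences, its groups did not overlap, and here pool 3 was the lowest pool. Pcdhb11 was at -0.11, 0.09, -0.41, 2.21 and -0.57 against 1.90, 1.48 and 2.29, a difference of -1.65 (SE 0.58). Floxed tumour 4 lay among the pools for this gene, so its groups overlapped, while the other 4 floxed tumours were all below. These 5 genes all lie in the first part of the measured cluster, between Pcdhb3 and Pcdhb11. The same stretch also holds Pcdhb5, Pcdhb6, Pcdhb8 and Pcdhb9, with smaller differences of -0.94, -0.76, -0.34 and -0.77.

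The other beta genes with an unadjusted p under 0.05 had smaller differences. The difference was -1.01 for Pcdhb16, -0.94 for Pcdhb5, -0.93 for Pcdhb13, -0.83 for Pcdhb22, -0.82 for Pcdhb14, -0.78 for Pcdhb21, -0.77 for Pcdhb9, -0.76 for Pcdhb6 and -0.62 for Pcdhb15. Of these, Pcdhb9, Pcdhb13, Pcdhb16 and Pcdhb21 had no overlap of groups. The dim genes among them were not always detected: Pcdhb13 was well above background in 2 of 5 floxed tumours and 3 of 3 pools, and Pcdhb9 in 3 of 5 and 3 of 3. With the processed signals in place of the offset background correction, the differences of Pcdhb13 and Pcdhb9 were -2.06 and -1.65. Pcdhb13 reached the 3 arrays that the filter asks for only with the pools counted.

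The other 6 measured beta genes did not reach that p. The differences were -1.01 for Pcdhb17 (SE 0.49), -0.91 for Pcdhb12 (SE 0.51), -0.45 for Pcdhb18, -0.34 for Pcdhb8, -0.25 for Pcdhb20 and 0.35 for Pcdhb19. Pcdhb17, the brightest beta gene in the tumour channel, ran from -1.01 to 0.92 in the floxed tumours and from 0.31 to 1.47 in the pools, so that a difference as large as that of Pcdhb16 was within its spread. Pcdhb19 was the sole beta gene with a higher floxed mean, and that mean rests on floxed tumour 1 at 1.61, since the other 4 ran from -0.22 to 0.37 against -0.39 to 0.54 in the pools.

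Where a beta gene had a second usable probe, both probes gave the same sign in 6 of 6 genes. The pairs were close for Pcdhb13 (-0.93 and -0.96), Pcdhb15 (-0.62 and -0.60, from overlapping probes) and Pcdhb17 (-1.01 and -0.92). They were farther apart for Pcdhb5 (-0.94 and -1.61), Pcdhb16 (-1.01 and -0.51) and Pcdhb19 (0.35 and 0.10). The 2 beta genes not measured, Pcdhb1 and Pcdhb2, were well above background in no floxed tumour, and Pcdhb2 in 1 pool.

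**Figure D2:**
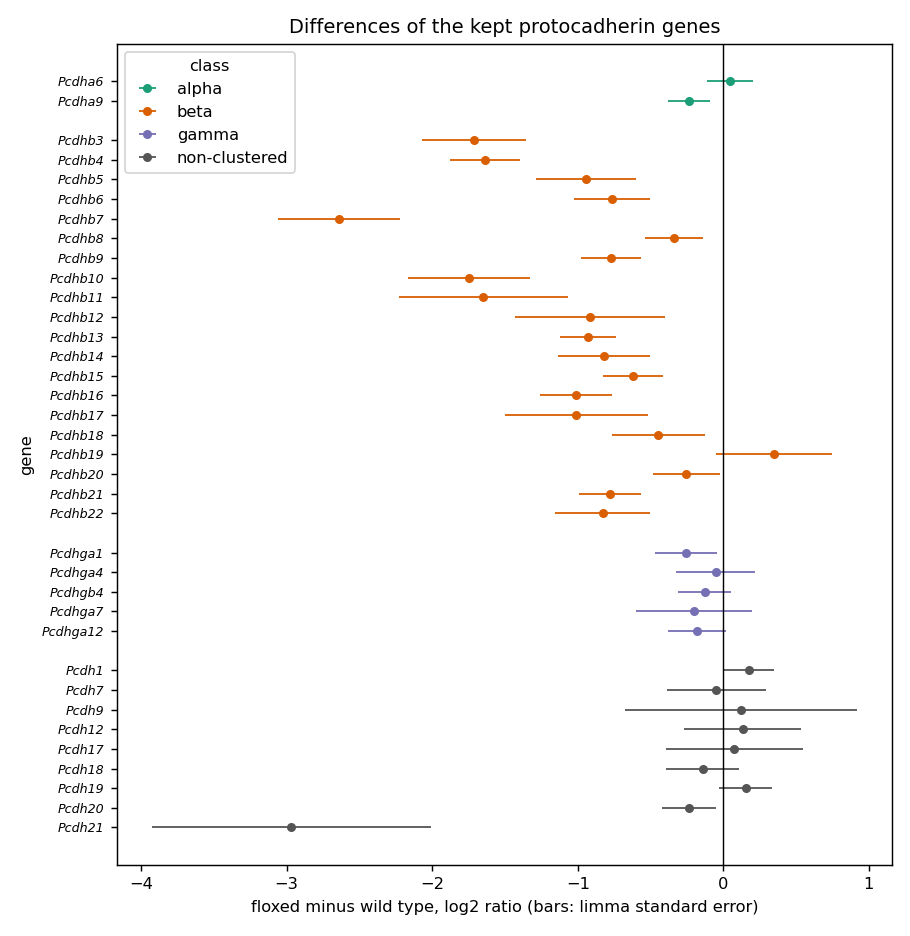
Difference between the 5 floxed tumours and the 3 wild-type pools for each of the 36 measured protocadherin genes, as floxed minus wild type in log2 ratio units; points are differences of means, bars are limma standard errors, and colours mark the class. The beta genes spread from -2.64 to 0.35, the alpha and gamma genes stay between -0.26 and 0.05, and Pcdh21 at -2.97 is the sole non-clustered gene far from 0.

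The floxed tumours did not share the beta pattern equally. As the median over the 20 genes against the mean of the pools, floxed tumours 1 to 5 were at -0.56, -0.99, -1.26, -0.44 and -1.06, and wild-type pools 1 to 3 at -0.17, -0.26 and 0.43. Floxed tumour 3 lay below all pools for 19 of 20 genes, tumour 2 for 17, tumours 4 and 5 for 16 each and tumour 1 for 11, where the share over all genes was 27.4 to 28.9% for each tumour. Floxed tumour 3 was the lowest floxed sample for 11 of 20 genes, against 16.7% of all genes, and floxed tumour 4 the highest for 10 of 20, against 16.2%. Floxed tumour 1 was the highest for 7 (35%), near its share of 31.1% of all genes, among them Pcdhb5, Pcdhb6, Pcdhb14, Pcdhb17, Pcdhb18 and Pcdhb19, yet it lay below all pools for Pcdhb7, Pcdhb10 and Pcdhb11. By their medians over the cluster, floxed tumours 1 and 4 were the nearest to the pools.

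Without wild-type pool 3, fewer beta genes passed the unadjusted threshold, as did fewer of all genes, while most of the median difference stayed. Pool 3 was the highest pool for 17 of 20 beta genes, against 47.0% of all genes. Without it, the median difference was -0.69 and 18 of 20 genes were still lower. Lower values with an unadjusted limma p under 0.05 were then found for 8 beta genes and for 287 of all 21565 genes. With all samples these counts were 14 and 725. Without pool 3, Pcdhb7 was at -2.19, Pcdhb4 at -1.80, Pcdhb11 at -1.45, Pcdhb10 at -1.40 and Pcdhb3 at -1.23. The arrays came on 3 slides, each with 1 pool. Within the slide of pool 1 (with floxed tumours 4 and 5) the median beta difference was -0.70, with 17 of 20 genes lower. Within that of pool 2 (with floxed tumour 1) it was -0.35, with 11 of 20 lower, and within that of pool 3 (with floxed tumours 2 and 3) it was -1.45, with 20 of 20 lower.

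The genes around the clusters, fixed as a list of neighbours such as Taf7, Hdac3 and Diaph1, were not lower as a group: 8 of 24 were lower and 16 higher, with a median difference of 0.09. Of these, 1 was lower with an unadjusted p under 0.05 (background 3.36%): Cd14, the lipopolysaccharide co-receptor of myeloid cells, at -0.96 (SE 0.41). Slc25a2, a mitochondrial ornithine carrier gene between the beta and gamma clusters, had a difference of 0.70 (SE 0.36) and did not reach that p. None of the 24 passed after adjustment over all genes.

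Among cell type markers, the 8 basal epithelial markers had a negative median difference too. Their median difference was -0.63, with 5 lower and 3 higher, and 1 was lower with an unadjusted p under 0.05 (background 3.36%), Trp63 at -1.71 (SE 0.63). Their per-sample medians against the pool mean were -0.33, 0.07, -0.69, -0.70 and -0.79 in the floxed tumours and -0.43, -0.60 and 1.08 in the pools, so pool 3 stood out here too. The summed tumour signal of the list was not lower: 104348 to 119008 in the floxed tumours and 69071 to 104713 in the pools. The 69071 belonged to pool 3, which was thus the highest sample by the median and the lowest by the sum. For neurons, which use clustered protocadherins most, 7 of 10 markers were measured, and Nefm and Gap43 were well above background on no array. Their median difference was 0.15, with 1 lower and 6 higher and none called. The sum ran from 19886 to 25387 in the floxed tumours and from 17738 to 22535 in the pools. For Schwann cells and nerve, 9 of 10 were measured, with a median difference of -0.11 and sums of 98687 to 171617 and 116480 to 203416. The largest median difference of a marker list was that of skeletal muscle, 0.74, with 6 of 6 genes higher, led by floxed tumour 5 at a median of 2.57 against the pool mean, and none had an unadjusted p under 0.05. Its sums ran from 6268 to 32871 in the floxed tumours and from 6173 to 7034 in the pools. The 5 measured adipocyte markers had medians of 2.24, 0.70, -1.10, -1.90 and -1.81 in floxed tumours 1 to 5 and of 1.15, -0.08 and -1.09 in pools 1 to 3. Their median difference was -0.16, none was called, and the sums ran from 17656 to 78543 and from 23280 to 48254. The fibroblast, macrophage and T cell lists had median differences of 0.12, 0.08 and 0.08, with no gene called. The part of these cells in the beta differences was not tested.

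The alpha cluster was scarcely represented. The brightest probes of Pcdha6 and Pcdha9 were taken from their coordinates to lie in the variable exons of these genes. On them, Pcdha6 was at 0.50, 0.39, 0.14, 0.11 and 0.17 in the floxed tumours and at 0.31, -0.03 and 0.37 in the pools, a difference of 0.05 (SE 0.16). Pcdha9 was at 0.23, 0.18, 0.19, -0.08 and -0.05 against 0.13, 0.38 and 0.49, a difference of -0.24 (SE 0.15). The groups overlapped for both, and these were the 2 members with the smallest SD over the 8 arrays, 0.175 and 0.192. Pcdha4 was well above background on no array.

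Further probes named for Pcdha6 and Pcdha9 lie 156, 185 and 187 kb past the last alpha variable exon probed, in the shared part of the cluster, where in RefSeq (GRCm38.p6) all 14 alpha genes end within 10 kb of the commonest end. They were taken as constant-region probes from these distances alone, since no annotation of the mm7 build was used to place them in exons. The remaining alpha probes were likewise taken as variable exon probes from their coordinates alone. The same holds for both kinds of probe in the gamma cluster. A probe in the constant exons reads the transcripts of any alpha promoter, so the gene names these probes carry are uncertain. The farthest, named Pcdha6, was at -1.22, -1.50, -0.88, -2.64 and -2.22 in the floxed tumours and at -2.08, 0.26 and -0.97 in the pools. The one 185 kb past, named Pcdha9, was at -1.07, -1.12, -0.82, -1.86 and -1.58 against -1.54, -0.05 and -0.90. On both, pool 2 was the highest sample and the 3 arrays of 1 slide (floxed tumours 4 and 5 and pool 1) were the 3 lowest, and the groups overlapped. The probe at 156 kb, whose 60 bases span a splice junction, was flatter, from -0.64 to -0.20 in the floxed tumours and from -0.53 to 0.18 in the pools. The differences were -0.76, -0.46 and -0.11, and for Pcdha6 the sign thus depended on the probe.

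In the gamma cluster, whose constant exons are shared by all 21 genes in RefSeq, the brightest probe lay in the region taken as constant and was named Pcdhga7. It was at -1.15, 0.21, -1.0, -0.25 and -0.24 in the floxed tumours and at -1.13, 0.31 and -0.03 in the pools, a difference of -0.20 (SE 0.40). The groups overlapped, with floxed tumour 2 and pool 2 the highest. A second probe that overlaps it gave -0.78, 0.29, -0.82, -0.12 and -0.17 against -0.79, 0.34 and 0.02. Another constant probe, 70.1 kb past the last gamma variable exon probed, against 71.8 kb for the others, gave -0.99, 0.15, -0.83, -0.16 and -0.42 against -1.34, 0.13 and -2.17. It matched the others in 7 samples and went far lower in pool 3, which turned the sign of its difference to 0.68; the cause was not tested.

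The variable exons of the gamma cluster differed little. Pcdhga4 was at 0.86, 0.43, 0.51, 0.87 and 0.66 in the floxed tumours and at 0.35, 0.32 and 1.47 in the pools, a difference of -0.05 (SE 0.27), with pool 3 the highest sample. Pcdhga1 had a difference of -0.26, Pcdhga12 of -0.18 and Pcdhgb4 of -0.13, all with overlapping groups. The variable exon probe of Pcdhga7 was at 1.96 in floxed tumour 1 and from 0.23 to 0.81 on the other 7 arrays. Its difference was 0.29 (SE 0.35), opposite in sign to the -0.20 of the constant-region probe. The gamma class median of -0.18 counts Pcdhga7 by that constant-region probe. Pcdhgb4 was dim, well above background in 2 of 5 floxed tumours and 1 of 3 pools, and Pcdhga9 in 1 floxed tumour and no pool, so that it was not kept.

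**Figure D3:**
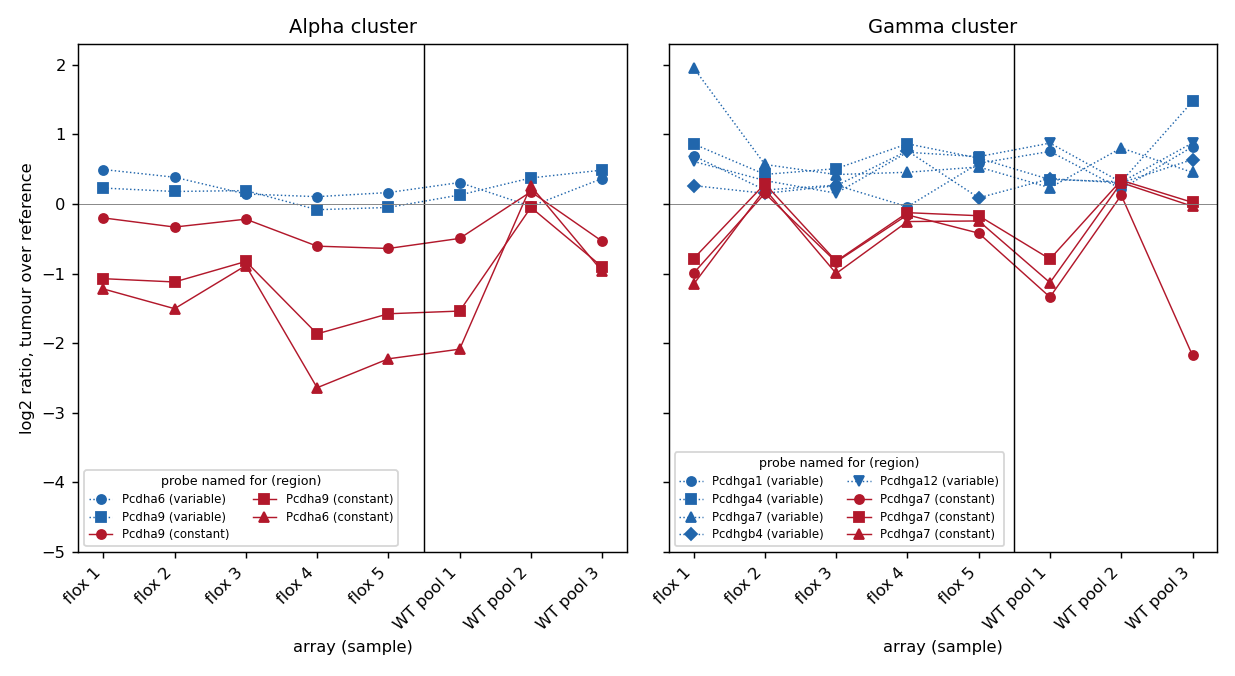
Log2 ratio of tumour over reference for each measured alpha and gamma probe in the 5 floxed tumours and 3 wild-type pools. Blue symbols with dotted lines are probes taken from their coordinates to lie in variable exons. Red symbols with solid lines are probes taken from their distance to lie in the shared constant region, and lines only join the values of a probe. The red constant-region probes vary more between samples than most blue ones, with pool 2 the highest sample on the 3 alpha ones, and 1 gamma probe falls to -2.17 in pool 3.

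Of the 9 measured non-clustered genes, 4 had lower and 5 had higher floxed means. The exception in size was Pcdh21, now named Cdhr1, a cadherin of photoreceptor outer segments. It was at -1.05, 0.23, 2.16, 1.81 and 2.33 in the floxed tumours and at 2.93, 3.1 and 6.17 in the pools, a difference of -2.97 (SE 0.96), or 7.83-fold lower. The groups did not overlap, but they nearly met at floxed tumour 5 and pool 1, and pool 3 stood far above the rest. Pcdh21 had the largest SD over the 8 arrays of all members, 2.13, ahead of Pcdhb7 at 1.5. Without pool 3 the difference was -1.92, and within the slides of pools 1, 2 and 3 it was -0.86, -4.15 and -4.98. Its limma adjusted p was 0.940.

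Pcdh9, a long gene expressed mainly in brain, showed a pattern of a single tumour. On its brightest probe it was at -3.17, -2.70, 0.33, -3.53 and -2.65 in the floxed tumours and at -3.18, -2.43 and -1.78 in the pools, a difference of 0.12 (SE 0.80). Floxed tumour 3 thus had about the level of the reference, while every other sample was far below it. All 5 probes of Pcdh9, including 3 that were too dim to keep, were highest in floxed tumour 3, at -0.52 to 0.33. The 5'-most of them, at chr14:88234568-88234627 on the minus strand in mm7, is shown because it reads the start of the gene, in mm7 far upstream of the 3'-most ones, in lower case with no part marked. It was at -3.07, -2.97, -0.52, -3.33 and -2.64 against -3.26, -2.40 and -2.55, so the high value of tumour 3 was seen at both ends of the probed stretch.

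Pcdh9 probe: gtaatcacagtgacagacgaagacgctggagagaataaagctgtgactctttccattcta

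**Figure D4:**
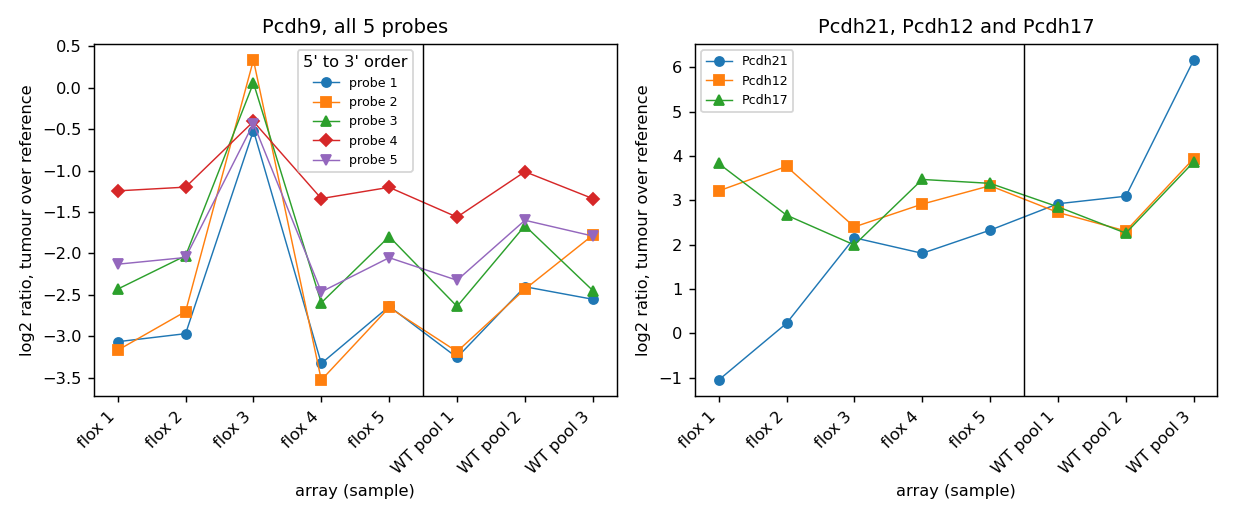
Left, log2 ratio of tumour over reference for the 5 probes of Pcdh9, numbered from the 5' end of the gene, in the 5 floxed tumours and 3 wild-type pools; right, the same for Pcdh21, Pcdh12 and Pcdh17. Lines only join the values of a probe. All 5 Pcdh9 probes peak in floxed tumour 3, and Pcdh21 is lowest in floxed tumour 1 at -1.05 and highest in pool 3 at 6.17.

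The promoters of Pcdh21 (Cdhr1) and Pcdh9 are shown because these were the non-clustered genes with the largest spread between samples. Both are 250 bases before the RefSeq start in GRCm38.p6, on the minus strand, at chr14:37098348-37098597 and chr14:93890680-93890929. Capitals mark a TATAA motif on either strand.

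Cdhr1: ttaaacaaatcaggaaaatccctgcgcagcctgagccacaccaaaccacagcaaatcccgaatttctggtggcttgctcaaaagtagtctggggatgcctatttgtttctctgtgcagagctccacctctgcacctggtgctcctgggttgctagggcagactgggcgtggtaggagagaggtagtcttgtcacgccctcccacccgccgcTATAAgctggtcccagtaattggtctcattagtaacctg

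Pcdh9: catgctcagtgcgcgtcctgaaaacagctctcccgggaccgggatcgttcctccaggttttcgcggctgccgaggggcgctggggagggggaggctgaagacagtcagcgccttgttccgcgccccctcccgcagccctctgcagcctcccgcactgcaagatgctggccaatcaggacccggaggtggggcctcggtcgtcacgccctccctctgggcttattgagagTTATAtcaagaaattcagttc

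Searched on both strands, TATAA was in 5 of the 11 promoters on hand for 10 non-clustered members, and in 22.8% of all 32851 promoters of that length. TTCNNNGAA, the spaced palindrome that STAT proteins bind, was in 0 of these 11 and in 7.02% of all. The motifs cannot overlap. A match is a description of letters, and its lack says only that these letters are not in the window.

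For the other non-clustered genes the groups overlapped. Pcdh18, the brightest in the tumour channel, was at 2.47, 2.27, 1.69, 2.37 and 1.55 in the floxed tumours and at 2.45, 1.98 and 2.21 in the pools, a difference of -0.14 (SE 0.25). Pcdh1, which is expressed in epithelia, was at 1.32, 1.28, 1.18, 1.39 and 1.16 against 0.67, 1.27 and 1.33, a difference of 0.18 (SE 0.17). Pcdh1 was nearly constant apart from pool 1, the lowest sample. Pcdh19, an X-linked gene known for its part in epilepsy, was at -3.65 to -3.09 in the floxed tumours and at -3.68 to -3.20 in the pools, far below the reference in every sample.

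On its brightest probe Pcdh12, a protocadherin of endothelial cells, was above the reference in all samples. It was at 2.40 to 3.77 in the floxed tumours and 2.31 to 3.95 in the pools, a difference of 0.13 (SE 0.40). A dim further probe of Pcdh12 lay near the reference, from 0.03 to 0.30 and from -0.02 to 0.20, a difference of 0.01. That probe was well above background in 2 of 5 floxed tumours and 1 of 3 pools, and it alone matched the current Pcdh12 symbol. Pcdh17 was at 2.00 to 3.83 and 2.26 to 3.87, a difference of 0.08 (SE 0.47). Floxed tumour 3 and pool 2 were the lowest of their groups on the brightest probes of both genes. The reference channel of Pcdh17 was well above background on no array, so its ratios have only a background-level denominator; its difference was 0.09 in the tumour channel alone and 1.09 with the processed signals. The same holds of the reference for Pcdhga12, Pcdhgb4 and Pcdh20. The 10 endothelial markers had their lowest medians in the same samples, -0.41 in floxed tumour 3 and -0.43 in pool 2, with summed signals of 29634 to 48924 in the floxed tumours and 30900 to 43757 in the pools. The part of vessels in these values was not tested. Pcdh7 had a difference of -0.05 and Pcdh20 of -0.24, with overlapping groups. Pcdh8, Pcdh10, Pcdh11x and Pcdh15 were not kept; Pcdh15, a tip-link protein of hair cells, was well above background on no array.

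The genes known to act with protocadherins gave few differences. Of the listed regulators of promoter choice and silencing, 19 of 23 were measured; the floxed mean was below that of the pools for 9 and above it for 10, the median difference was 0.01 and none had an unadjusted p under 0.05. The largest differences among them were -0.46 (SE 0.20) for Stag1, a cohesin subunit, and -0.35 (SE 0.17) for Smchd1, a silencing factor of the clusters. Of the cytoplasmic partners, 18 of 20 were measured, 13 with higher floxed means, and 1 was called higher (background 1.62%): Nckap1, a subunit of the WAVE actin-regulating complex, at 0.37 (SE 0.16), whose floxed tumours all lay above the pools (background 1.04%) and which was picked out for its p. The largest differences of that list were 0.60 (SE 0.32) for Ptk2b, a kinase that clustered protocadherins hold in check, and 0.38 (SE 0.17) for Rac1. Of the other cadherins, 23 of 34 were measured under the listed name, with a median of -0.07 and none called. The largest differences of these 23 were -0.91 (SE 0.42) for Cdh4 and -0.65 (SE 0.35) for Celsr2. Cdhr1 is on this list too, but it was measured as Pcdh21 and is not counted in the 23. Its difference of -2.97 was larger, with an unadjusted limma p of 0.0128 (background for lower 3.36%). No gene of the 3 lists passed after adjustment over all genes.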

How the data were processed

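Each array's spot intensities, as deposited by the authors, were mean and background intensity values from Agilent Feature Extraction 9.5.3.1, per the file headers, with probe coordinates in mm7. The authors also deposited a table of log2 values, for which the submitters' processing notes name RMA and Feature Extraction. It followed the tumour over reference ratio of each array (r 0.989 to 0.994), which settles its direction and log scale. Its column medians were 0.01, 0.00442, 0.00677, 0.00215 and 0.00287 for floxed tumours 1 to 5 and 0.00469, 0.00314 and 0.0048 for pools 1 to 3; its centring stays unknown, and it was used only in a check.

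Intensities were background-corrected by normexp (offset 50), and ratios normalized by loess within arrays (control spots at weight 0, outlier spots dropped), using limma 3.58.1 under R 4.3.3. The dyes were never swapped, so levels against the reference are open to dye bias. Summed tumour signals, the ranking of probes by brightness and the use of Cy5 without Cy3 rest on background-corrected Cy5 intensities. These were quantile-normalized across the arrays. Probes whose Cy5 signal the scanner software called well above background on 3 or more of the 8 arrays were kept, and a gene took its brightest kept probe. Groups were compared two-sided with limma, adjusted by Benjamini-Hochberg over 21565 genes. Of the member probes, 52 of 71 matched a current symbol by accession; the others kept the array's name. Simulated data with 21452 genes gave back 86% of 100 genes changed by 2 log2 units and 33% of 100 changed by 1. The simulated noise was normal, independent between genes and samples, and of the same spread in both groups. Single tumours against pools, and slides, were not simulated, so these shares may not hold for the real samples. Nothing in the labels says more of how the mice were sampled, so each p-value reflects only how these 8 samples vary.

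Members, related lists and tests were chosen with earlier results of these data known. Named were Stat3, every measured beta gene, the 3 brightest genes of each other class, members without overlap of groups, the 2 largest and 2 smallest SDs, members whose probes disagree in sign, members with an outlying floxed tumour, and the 2 largest differences of each related list. Nckap1, Pcdh7, Pcdh12, Pcdh17, Pcdh20 and the dim members were added to account for all members and calls. Alternatives covered background correction, normalization, use of Cy5 without Cy3, the filter, the mean of a gene's probes, slide blocks, the variance model, the deposited table and the removal of single samples.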

Additional observations from a re-analysis of the deposited data

Results flagged for a closer look

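In 4 of 41 sets of floxed values tested (36 members, Stat3 and the class medians), 1 of the 5 tumours lay far from the other 4 by Dixon's criterion at the 95% level; chance gives about 2.05 such sets. Floxed tumour 4 was the high one for 3 clustered genes: Pcdhb11 at 2.21 (next 0.09, lowest -0.57), Pcdhb7 at 0.37 (next -0.82, lowest -1.14) and Pcdhgb4 at 0.76 (next 0.27, lowest 0.09). Pcdhb11 and Pcdhb7 belong to the beta cluster, in which floxed tumour 4 was the highest floxed sample for 10 of 20 genes. Floxed tumour 3 was the high one for Pcdh9, at 0.33 (next -2.65, lowest -3.53). Without floxed tumour 4 the median beta difference was -0.99. In that setting 14 beta genes and 1127 of all 21565 genes had an unadjusted limma p under 0.05.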

How the results depend on the processing

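The beta median kept its sign under every alternative run, at -0.81 to -1.01 under other processing and -0.99 to -0.69 with 1 sample left out; within the slides of pools 2 and 3 it was -0.35 and -1.45. The count of beta genes at an unadjusted limma p under 0.05 was 8 to 16 with 1 sample left out. The 8 came without wild-type pool 3, where 475 of all 21565 genes had such a p. The 16 came without floxed tumour 1, where 1294 of all genes did. Over all genes the highest count was 1899, without pool 2, where the beta count was 14. With all samples the counts were 14 beta genes and 1075 of all genes. The alpha median was -0.31 with probe means and 0.19 within the slide of pool 2, and -0.15 to -0.02 with 1 sample left out. The gamma median was 0.063, 0.30 and -0.59 within the slides of pools 1, 2 and 3, and -0.25 to -0.08 with 1 left out. The non-clustered median was 0.42 and -0.23 within the slides of pools 2 and 3, and -0.21 to 0.30 with 1 left out; its count was 2 with processed signals or no filter, and 0 to 1 with 1 left out. With 1 left out, the alpha and gamma counts were 0 and the Stat3 difference was -2.36 to -1.79, with an adjusted p of 0.0281 (without pool 1) to 0.382 (without floxed tumour 5); over other processing its adjusted p was 0.0551 to 0.703, the latter with probe means (-1.32). Why these moved was not tested, apart from the fewer samples within slides, where no p was computed. Of 786 values of single genes, 724 moved by less than the spread of replicates. Pcdh17 was at 1.09 with processed signals. No paired analysis was possible because the numbers of the floxed tumours only name them and are not shared with the pools. The 8 arrays limit precision, and dim members such as Pcdhgb4 and Pcdh20 lie near the background.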
